A study of Mus musculus with 6 samples.

Results

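The baseline transcriptome of wild-type LSK cells was described from 3 of the 6 arrays of the study, those of the WT group. LSK cells are the bone marrow cells that lack lineage antigens and carry Sca-1 and c-Kit, a fraction that holds the blood stem cells and multipotent progenitors. They were flow sorted from bone marrow of 6-month-old mice of the strain given as CD57BL/6 and profiled as 125 ng of total RNA. The other 3 arrays came from Tet1 KO mice, which lack a dioxygenase that oxidises methylated cytosine, and were not analysed here. The labels number the WT arrays 1 to 3 without saying that each is a mouse of its own, so the spread given here is that between these arrays and may be partly technical. Each of 18195 genes was represented by its probe set of highest mean log2 intensity over the 3 WT arrays, and all genes were ranked by that mean. Rank percentile 100 is the highest mean, and 1 log2 unit is a 2-fold difference in intensity.

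Stem cells in this fraction are kept by a network of transcription factors, among them Gata2, Runx1, Meis1 and Tal1, and by receptors for niche cytokines such as stem cell factor, the ligand of c-Kit. Progenitors of the same gate are known to carry transcripts of several blood lineages at once before commitment, which is called lineage priming. Flt3 marks the progenitors with lymphoid potential and CD34 the short-lived stem cells and progenitors in the mouse.

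The intensity of a probe set depends on how its probes bind as well as on the amount of RNA, so the ranking orders signals and not molecules. Rps16, a core protein of the small ribosomal subunit, read 2.51, 2.63 and 2.59 on its 1 probe set, although most cytosolic ribosomal protein genes were bright. The 44 measured had a median percentile of 99.8, and 38 of them were in the top 10%. A low value is therefore no evidence that a transcript is absent. The spread of 1 gene over the 3 arrays compares the same probes, but it too depends on how well they respond. A small spread on a dim probe set, as for Rps16, is no evidence that the RNA amount is steady.

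The 3 arrays were alike in scale, with medians over all probe sets of 5.24, 5.24 and 5.23 and Pearson correlations over genes of 0.983 to 0.986, given as a description across genes of 1 cell type. On each array the brightest probe set of the Bacillus control sequences read 4.36, 4.27 and 4.26, and this value was taken as the control level. In all, 12485 genes were above it on all 3 arrays, which is 68.6% of genes, and 4678 were above it on none, which is 25.7%. The other 1032 genes were above it on 1 or 2 arrays. The shares of 68.6% and 25.7% are the background for the counts of lists and families below. Replicate 3 stood apart for genes of the sex chromosomes. Xist, the RNA that silences an X chromosome, read 12.17, 12.09 and 4.58, and the Y-linked gene Kdm5d read 3.10, 2.77 and 8.30. The labels do not give the sex of the mice.

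**Figure D1:**
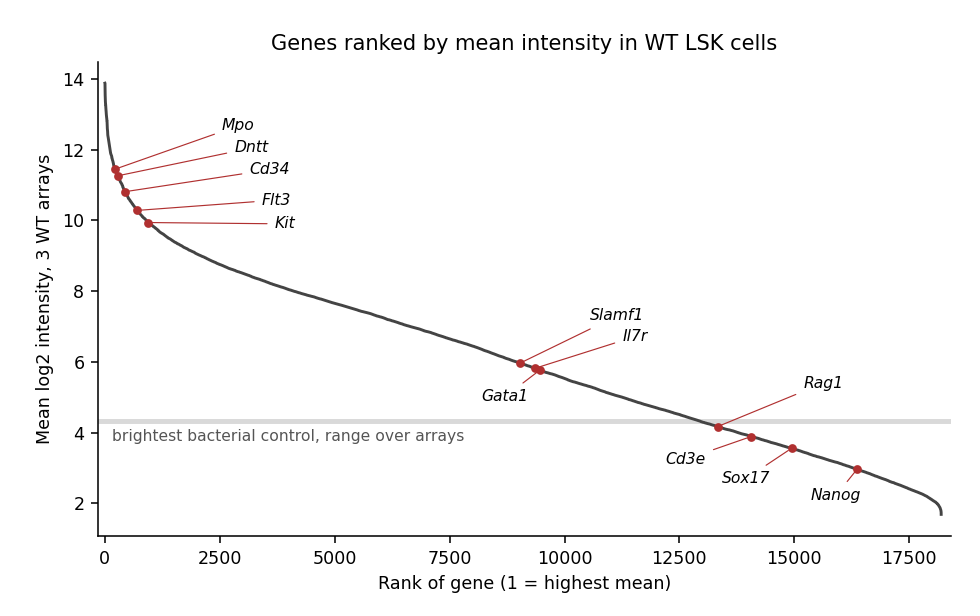
Mean log2 intensity over the 3 WT arrays (vertical axis) of 18195 genes against their rank (horizontal axis, 1 is the highest mean); points mark named genes and the grey band is the range of the brightest Bacillus control over the arrays. Kit, Cd34 and Flt3 lie in the top 10%, Slamf1, Il7r and Gata1 near the middle, and Rag1, Cd3e, Sox17 and Nanog below the band by their means.

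The 3 marker genes measured were bright, though only Kit is an antigen of the sort. Kit, the stem cell factor receptor by which the cells are sorted, read 10.02, 9.83 and 9.98 (9.94 ± 0.10 SD, n = 3), at rank 947. Its level lies within the sort's own criterion, and Ly6a, which encodes Sca-1, was not analysed here. Cd34 read 10.61, 10.85 and 10.98 (10.82 ± 0.19 SD, n = 3), at rank 440. Flt3, the receptor of lymphoid-primed progenitors, read 10.60, 10.31 and 9.95 (10.29 ± 0.32 SD, n = 3), at rank 708. All 3 genes were in the top 10% on each array, at percentiles between 94.1 and 97.8. Neighbours in the order were close: 174 other genes lay within 1 SD of Kit, 134 within 1 SD of Cd34 and 407 within 1 SD of Flt3. The second probe set of Kit had a mean of 8.64, so the position of Kit also depends on the choice of probe set.

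The CG content of promoters varied along the ranking, and the stretches upstream of 7 genes are printed as examples. The sequences are the 250 bases before each gene's start, from RefSeq (GRCm38.p6), on the strand of the gene, with each CG dinucleotide in capitals. Kit (chr5:75574737-75574986, plus strand) and Flt3 (chr5:147400490-147400739, minus strand) have 17 and 13 CG, and Cd34 (chr1:194938571-194938820, plus strand) has 6. These 3 are shown because they are the measured markers of the fraction.
Kit: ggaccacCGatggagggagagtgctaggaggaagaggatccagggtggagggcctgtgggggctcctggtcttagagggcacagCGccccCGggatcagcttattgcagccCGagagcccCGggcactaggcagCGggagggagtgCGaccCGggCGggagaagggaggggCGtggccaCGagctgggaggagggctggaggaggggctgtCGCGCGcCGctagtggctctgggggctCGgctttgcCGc
Flt3: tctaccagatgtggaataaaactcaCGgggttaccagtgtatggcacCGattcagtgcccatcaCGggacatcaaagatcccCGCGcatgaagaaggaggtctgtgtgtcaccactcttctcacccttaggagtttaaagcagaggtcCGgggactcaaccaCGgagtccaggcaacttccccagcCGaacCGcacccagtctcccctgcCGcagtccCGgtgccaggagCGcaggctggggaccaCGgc
Cd34: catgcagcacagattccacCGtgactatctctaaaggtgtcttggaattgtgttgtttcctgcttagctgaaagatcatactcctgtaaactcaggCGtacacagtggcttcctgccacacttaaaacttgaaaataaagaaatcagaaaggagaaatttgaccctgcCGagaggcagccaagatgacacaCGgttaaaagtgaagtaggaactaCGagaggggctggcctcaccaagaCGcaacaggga

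The other 4 are shown because they follow or break the pattern. Hlf (chr11:90390918-90391167, minus strand), a stem cell transcription factor with a mean intensity of 10.49, has 26 CG. Sox2 (chr3:34649745-34649994, plus strand), a pluripotency factor with a mean of 2.09, has 27. Mpo (chr11:87793534-87793783, plus strand), the peroxidase of neutrophil granules, had a mean of 11.45 and has 2 CG. Dntt (chr19:41029025-41029274, plus strand), the template-free polymerase of lymphoid progenitors, had a mean of 11.26 and also has 2.
Hlf: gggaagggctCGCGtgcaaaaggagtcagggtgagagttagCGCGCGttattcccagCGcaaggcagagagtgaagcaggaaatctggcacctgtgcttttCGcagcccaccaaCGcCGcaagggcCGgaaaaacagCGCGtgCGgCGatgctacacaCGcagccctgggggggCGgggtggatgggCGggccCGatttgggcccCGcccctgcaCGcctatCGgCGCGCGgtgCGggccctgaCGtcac
Sox2: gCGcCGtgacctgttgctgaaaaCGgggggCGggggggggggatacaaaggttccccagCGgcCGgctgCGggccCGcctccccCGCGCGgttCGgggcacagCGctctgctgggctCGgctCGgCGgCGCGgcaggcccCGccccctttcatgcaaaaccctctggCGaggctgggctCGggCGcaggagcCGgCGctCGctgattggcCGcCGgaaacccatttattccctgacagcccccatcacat
Mpo: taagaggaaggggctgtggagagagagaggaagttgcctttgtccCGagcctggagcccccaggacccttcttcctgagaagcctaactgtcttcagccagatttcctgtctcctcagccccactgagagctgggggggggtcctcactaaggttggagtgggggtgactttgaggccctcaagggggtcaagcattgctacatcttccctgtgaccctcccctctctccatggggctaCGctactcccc
Dntt: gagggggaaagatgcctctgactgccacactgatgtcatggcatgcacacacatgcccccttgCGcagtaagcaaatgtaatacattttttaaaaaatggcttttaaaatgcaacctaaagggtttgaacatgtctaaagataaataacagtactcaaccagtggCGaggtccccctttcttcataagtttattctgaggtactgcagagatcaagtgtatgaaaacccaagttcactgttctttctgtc

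Over 13265 protein-coding genes with such a sequence, the observed over expected ratio of CG was 0.6 or more in 55.3% of promoters. In the decile of genes with the highest means the share was 78.1%, and it was 76.6%, 76.1%, 72.6%, 67.7%, 57.9%, 43.0%, 32.0%, 28.4% and 20.9% in the following deciles. Of the genes above the control level on all 3 arrays, 66.0% had such a promoter, against 24.8% of the genes above it on none. The ratio was 0.93 for Hlf and 0.83 for Sox2, which sat at opposite ends of the ranking, and 0.09 for Mpo and 0.19 for Dntt, which were both bright. Kit, at 0.601, and Flt3, at 0.597, were on either side of the limit. The median GC content also went from 60.8% in the highest decile to 49.2% in the lowest, and its part in these shares was not tested.

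Gene lists of the fraction differed in this feature. A ratio of 0.6 or more was found in 55.3% of all promoters and 78.1% of those in the highest decile. For genes above the control level on all 3 arrays the share was 66.0%. Such a ratio was found for 19 of 30 stem cell transcription factor genes (63.3%), which is below the last 2 shares. It was also found for 18 of 22 mitotic and replication genes (81.8%). It was found for 4 of 19 myeloid priming genes (21.1%), 3 of 17 lymphoid priming genes (17.6%), 3 of 16 erythroid genes (18.8%), 1 of 13 megakaryocyte genes (7.69%) and 0 of 11 mature neutrophil genes. Among families with few members above the control level, 4 of 8 Hoxd genes and 0 of 29 olfactory receptor genes had it. The word TATAAA, searched on both strands as were the others, was in 8.89% of all promoters, with 7.09% in the highest decile and 18.6% in the lowest. GGAAGT, a core of ETS factor sites, was in 21.6% of all promoters, with 25.5% in the highest decile and 17.3% in the lowest. The core of sites for Gata factors, which is AGATAA, was in 7.26%, with 4.83% in the highest and 12.9% in the lowest. An E-box, CAGCTG, was in 12.3%. The core of Runx sites, TGTGGT, was in 11.4%. The upstream stretches of Flt3 and Mpo hold the ETS core and that of Dntt holds the Gata core. A match is a description of letters and shows no binding.

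**Figure D2:**
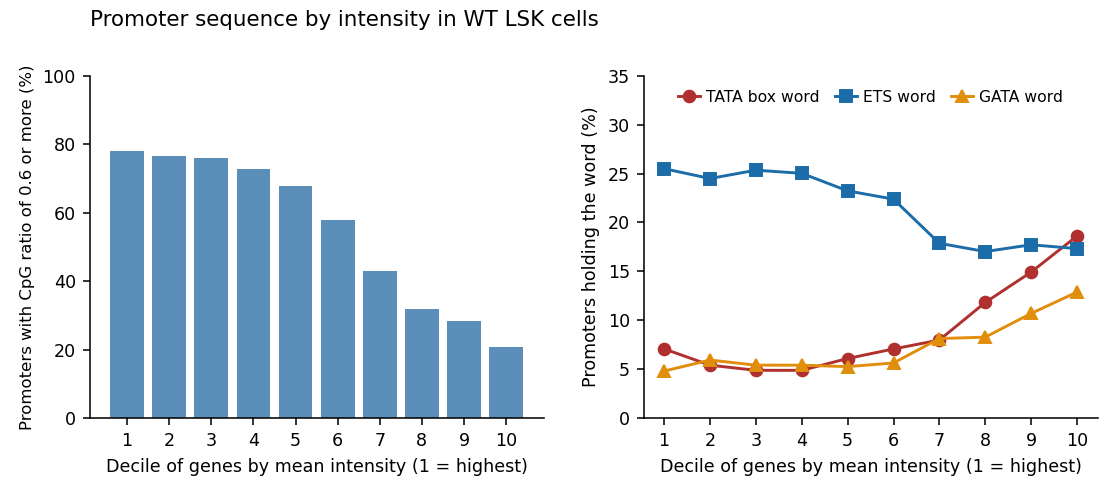
Left, share of promoters (percent) with a CG ratio of 0.6 or more in each decile of protein-coding genes by mean intensity (1 is the highest); right, share of the same promoters that hold the TATA box word, the word of ETS factors or that of GATA factors. The CG share goes from 78.1% in the first decile to 20.9% in the last, and that of the TATA box word from 7.09% to 18.6%.

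The top of the ranking was taken by the translation machinery. Ribosomal protein genes held 36 of the first 100 places and 17 of the first 20, led by Rplp2, an acidic stalk protein, at 13.88, 13.91 and 13.87. Of the 44 cytosolic ribosomal protein genes measured by probe sets with 1 symbol, 43 were above the control level on all 3 arrays (97.7%, against 68.6% of all genes). The exception was Rps16. Paralogs were left out of this family, and the counts among the first 100 and 20 places cover these 44 only. Outside this family the leading genes were Hnrnpab, an RNA-binding protein, at 13.44 ± 0.05 (SD, n = 3), the elongation factor Eef1a1 at 13.37 ± 0.01, Tuba4a at 13.18 ± 0.17 and Pebp1 at 13.17 ± 0.07. The other probe sets of Tuba4a had means of 10.66 and 6.54, so its place rests on 1 of 3 probe sets. The nuclear RNA Malat1 had a mean of 13.13, and B2m, the light chain of MHC class I, a mean of 13.11. Stmn1, which destabilises microtubules in dividing cells, followed at 12.95, Laptm5, a lysosomal protein of blood cells, at 12.91, and the common reference genes Gapdh and Actb at 12.84 and 12.83. The first 100 genes had means between 12.1 and 13.9 and a median SD of 0.057, with a largest SD of 0.327.

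Among surface molecules of stem and progenitor cells, 25 of 26 were above the control level on all 3 arrays (96.2%, against 68.6% of all genes). The median percentile of the 26 was 85.1. Cd24a, a glycosylphosphatidylinositol-anchored sialoglycoprotein, read 12.05, 11.73 and 11.87. Cd47, the signal that protects cells from phagocytosis, read 11.70, 11.78 and 11.82. Spn, which encodes CD43, Cd53, Cd27, Ptprc, the pan-leukocyte phosphatase CD45, and Cd93 followed, with means of 11.46, 10.67, 10.37, 10.33 and 10.29. The molecules used to split the fraction ranked differently from each other. Cd48, a marker of progenitors, read 9.45, 9.82 and 9.29, and Procr, a receptor for protein C found on stem cells, read 9.26, 9.42 and 9.19, so their ranges overlapped. Slamf1, the stem cell marker CD150, read 5.94, 5.67 and 6.28, at percentile 50.4, and Tek, the angiopoietin receptor, read 6.09, 5.36 and 6.43. In bulk RNA, few cells with much transcript and many cells with little cannot be told apart. Prom1, at 3.10, 3.48 and 3.43, was the member below the control level on each array. The widest spreads among the 26 were those of Fcgr2b, an inhibitory Fc receptor, at 4.95, 6.20 and 6.75, and Thy1, at 5.13, 5.05 and 6.58, with replicate 3 the highest for both.

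Of 32 cytokine receptor subunit genes, 30 were above the control level on all 3 arrays (93.8%, against 68.6% of all genes). The median percentile of the 32 was 68.3. Il17ra, a shared subunit of interleukin 17 receptors, read 11.66, 11.09 and 11.27, and Ifnar2, a chain of the type I interferon receptor, read 9.97, 10.24 and 10.53. Il6st, the signal transducer gp130, read 8.02, 8.14 and 8.21, beside the ligand-binding chain Il6ra at 8.54, 8.13 and 8.41. Csf3r, the receptor of the granulocyte factor, read 8.04, 7.95 and 8.28. Csf1r, the macrophage factor receptor, read 6.26, 6.31 and 7.07, and Il7r, the interleukin 7 receptor, read 6.06, 6.20 and 5.19, so these 3 stood at percentiles 78.5, 57.3 and 48.6. Epor, which drives red cell formation, was nearer to the control level at 5.20, 5.28 and 5.22. Il4ra spanned 9.52, 7.69 and 8.56, with replicate 1 the highest, and Il18r1 read 7.38, 6.29 and 5.66. Bmpr1a was above the control level on 2 arrays only, at 6.80, 5.75 and 3.87, and Lifr was below it on each. In the family of 31 interleukin receptor genes by name, 19 were above on all 3 arrays (61.3%, against 68.6% of all genes). Another 9 were above on none, where the share of all genes was 25.7%. Among these were Il2ra, Il2rb, Il9r and Il5ra, receptors of activated T cells, mast cells and eosinophils.

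Of 36 receptors for migration, adhesion and guidance, 29 were above the control level on all 3 arrays (80.6%, against 68.6% of all genes). The median percentile of the 36 was 67.5. Cxcr4, the receptor by which stem cells stay in the marrow, read 11.49, 11.34 and 11.78. Adgrg1, the adhesion receptor GPR56, read 11.34, 11.38 and 11.60, and Notch2 read 11.16, 11.07 and 11.32. The integrin chains Itga4, with a mean of 9.85, and Itgb1, with a mean of 8.39, which pair as the receptor of VCAM-1, were both above. Notch1 had a mean of 9.05 and the P-selectin ligand Selplg one of 9.31. Ccr2, a chemokine receptor of monocytes, read 4.11, 7.13 and 4.18, so it was above the control level on replicate 2 alone. Ccr7, which guides lymphocytes, read 4.63, 4.11 and 6.60. Gprc5c, a marker of dormant stem cells, Ccr1, Fzd4 and Ptger2 were below the control level on all 3 arrays.

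**Figure D3:**
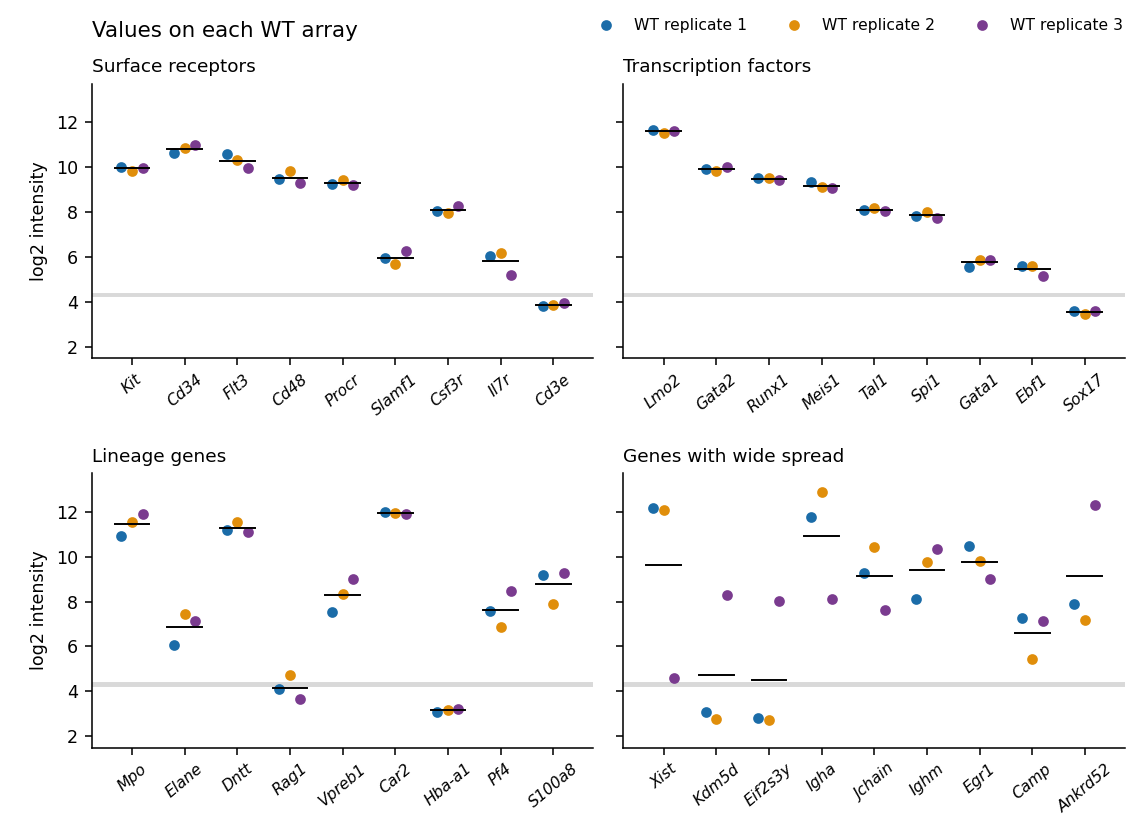
log2 intensity (vertical axis) of named genes on each of the 3 WT arrays, 1 point an array, in 4 panels for surface receptors, transcription factors, lineage genes and genes with a wide spread; black bars are means and the grey band is the range of the Bacillus control level. Points of the transcription factors shown lie close together, but the panel leaves out wider ones such as Hmga2 (6.16, 7.36 and 8.43). Genes of the last panel were picked for their spread, and those of Xist, Kdm5d, Eif2s3y and Igha lie several log2 units apart.

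Transcription factors of blood stem cells ranked high. Above the control level on all 3 arrays were 34 of 35 (97.1%, against 68.6% of all genes). The median percentile of the 35 was 91.6, and 20 of them were in the top 10%. Myc read 11.75, 11.87 and 11.51, and Myb, which is needed for definitive haematopoiesis, read 11.59, 11.47 and 11.60. Lmo2, the bridging protein of the Tal1 complex, read 11.64, 11.54 and 11.61. Its partners were Ldb1, at 9.62, 9.48 and 9.04, Lyl1, at 9.42, 9.45 and 9.41, Gata2, at 9.92, 9.82 and 10.001, and Tal1, at 8.10, 8.17 and 8.04. Among ETS factors of stem cells, Etv6 had a mean of 10.33, Erg of 9.64 and Fli1 of 9.49. In the whole ETS family 17 of 24 genes were above the control level on all 3 arrays, a share of 70.8% that is near the 68.6% of all genes. The 7 above on none included the epithelial factors Ehf, Elf3, Elf5 and Spdef.

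Hlf read 10.83, 10.37 and 10.26, Hhex had a mean of 9.53 and Meis1, the partner of HOX proteins, read 9.36, 9.10 and 9.07. Mecom, which encodes EVI1, read 9.64, 9.06 and 8.67 on its brightest probe set, while its other probe sets had means of 5.47 and 3.58. Runx1 and its partner Cbfb read 9.48 ± 0.06 and 10.45 ± 0.07 (SD, n = 3), and Runx3 9.29 ± 0.19. The dimmest of the 6 probe sets of Runx1 had a mean of 6.30. Bmi1, of Polycomb complex 1, had a mean of 8.91 and Prdm16 one of 7.85. Hmga2, a chromatin protein of fetal stem cells, read 6.16, 7.36 and 8.43, the widest spread of the list. Sox17, another factor of fetal stem cells, read 3.59, 3.49 and 3.59, below the control level throughout.

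Families of developmental factors were split between bright and dim members. In the Hoxa cluster 5 of 9 genes were above the control level on all 3 arrays (55.6%, against 68.6% of all genes). They were Hoxa9, at 9.69, 9.61 and 9.32, Hoxa3, Hoxa5, Hoxa10 and Hoxa7. The Hoxb cluster also had 5 of 9, led by Hoxb4, at 6.64, 7.01 and 7.35, and Hoxb5, at 6.54, 6.56 and 6.35. The Hoxc cluster had 3 of 7 and the Hoxd cluster 1 of 8, which was Hoxd12 at 4.87, 4.61 and 5.02. With a level 1 log2 unit higher, the counts were 3 for Hoxb and 0 for Hoxd. Of the Gata factors, Gata2 was in the top 10%, Gata3 and Gata1 were near the middle at means of 6.15 and 5.77, and Gata4 and Gata6, which serve heart and gut, were below the control level. Foxo3, Foxp1 and Foxn3 led the 37 Fox genes, with means of 10.90, 10.36 and 9.67. In this family 20 were above on all 3 arrays (54.1%, against 68.6% of all genes). Another 16 were below on every array, where the share of all genes was 25.7%, among them Foxa1, Foxa2 and Foxc1. Sox4 led the Sox genes at 10.50, 10.13 and 10.33 on its brightest probe set, while its other probe sets had means from 10.13 down to 1.84. All 6 Stat genes and all 4 Cebp genes measured were above, where the share of all genes was 68.6%.

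All 21 myeloid priming genes measured were above the control level on all 3 arrays (100%, against 68.6% of all genes). With a level 1 log2 unit higher 19 were above. Their median percentile was 73.0. Mpo read 10.91, 11.56 and 11.89. Calr, an endoplasmic reticulum chaperone, read 11.28, 11.36 and 11.15, Plac8 read 11.07, 11.41 and 11.29, and Lyz2, lysozyme, read 10.18, 10.28 and 10.30. The serine proteases of primary granules ranked lower, with Prtn3 at 9.34, 9.52 and 8.11, Ctsg at 8.14, 9.12 and 9.31, and Elane at 6.06, 7.45 and 7.12. For Mpo, Ctsg and Elane replicate 1 was the lowest, whereas for Prtn3 replicate 3 was. Of the regulators, Gfi1 read 8.47, 8.53 and 9.51, Spi1, which encodes PU.1, 7.83, 7.99 and 7.74, Cebpa 7.58, 8.10 and 7.38, and Irf8 6.02, 6.86 and 6.33.

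Of 12 genes of mature neutrophils 7 were above on all 3 arrays (58.3%, against 68.6% of all genes), with a median percentile of 34.2. Mmp8 and Fpr2 were below the control level on each array. The alarmin genes differed between arrays: S100a8 read 9.16, 7.89 and 9.29, S100a9 read 9.93, 8.46 and 9.61. Of the granule genes, Camp read 7.26, 5.46 and 7.13, Ngp read 6.90, 6.03 and 7.19, and Chil3 read 4.70, 2.33 and 4.89. Replicate 2 was the lowest for all 5, and also for Lcn2, Ltf, Cxcr2 and Fpr2, which lay near or below the control level. It was the highest for Padi4, an arginine deiminase, at 7.75, 8.10 and 6.28, and Mmp9 and Mmp8 differed little between arrays. Whether mature cells in the sorted samples or the LSK cells themselves gave this signal was not tested. In the list of monocytes, macrophages and dendritic cells 12 of 23 were above on all 3 arrays (52.2%, against 68.6% of all genes). Another 10 were above on none, where the share of all genes was 25.7%. The brightest were chains of MHC class II, H2-Aa with a mean of 9.29, H2-Ab1 with 8.78 and H2-Eb1 with 7.84, and Cd74, their invariant chain, with 8.76. The macrophage genes Adgre1, Mrc1 and the complement genes C1qa, C1qb and C1qc were below the control level on all 3. Other genes of these cells were above it on all 3, among them Cd68, Cd163, Cd14 and Marco, with means of 6.33, 5.65, 4.80 and 4.73.

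The lymphoid priming list had a median percentile of 72.3, close to the 73.0 of the myeloid list. Lymphoid genes had up to 11 probe sets (Ighm) and myeloid genes up to 3 (Calr and Csf1r), though many of both had 1. Over all genes the median percentile was 35.4 with 1 probe set and 76.4 with 4 or more. The medians of these lists are not matched for this. In the lymphoid list 20 of 23 genes were above on all 3 arrays (87.0%, against 68.6% of all genes), or 15 with a level 1 log2 unit higher. For this list and the myeloid one, bulk values cannot tell priming within LSK cells from transcripts of a few committed cells. Dntt read 11.18, 11.54 and 11.08, and its other probe sets had means of 10.98 and 10.14. Bcl11a, Mef2c and Tcf4, factors of early lymphoid progenitors, had means of 10.12, 9.85 and 9.56, and Satb1 one of 8.82. Of the recombinase genes, Rag2 read 5.20, 6.02 and 5.74 and Rag1 read 4.11, 4.72 and 3.68, so Rag1 was above the control level on replicate 2 alone. Ebf1, the B cell specification factor, read 5.62, 5.60 and 5.18. Vpreb1, a chain of the surrogate light chain, read 7.55, 8.31 and 8.99, and its partner Igll1 read 6.66, 6.29 and 6.72. Ighm read 8.09, 9.74 and 10.35.

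Of 18 genes of the B lineage, Vpreb1 and Igll1 included, 12 were above on all 3 arrays (66.7%, against 68.6% of all genes) and 6 on none. Cd72 and Cd79b had means of 8.0 and 7.73, Pax5 read 4.77, 4.99 and 4.93, just above the control level, and Ms4a1, Cd22, Blk and Blnk were below it. Of 21 T and NK cell genes 7 were above on all 3 arrays (33.3%, against 68.6% of all genes) and 14 on none. The exceptions in brightness were the pore-forming protein Prf1, at 8.06, 8.06 and 8.30, and the zeta chain gene Cd247, at 8.54, 7.64 and 8.05. Cd3d, Cd3e, Cd3g, Cd28, Gzma and Eomes were below. With a level 1 log2 unit higher, the count was 4 for T and NK cells and 7 for the B lineage. Of 5 antigens common in lineage depletion, Cd4, Cd8a and Itgam were above the control level, with means of 5.44, 5.28 and 4.76, and Cd3e and Cd5 were below it, and 1 of the 5 passed the higher level.

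The erythroid and megakaryocyte lists held a few bright genes. Car2, a carbonic anhydrase, read 11.98, 11.95 and 11.90 and Car1 read 8.77, 8.88 and 9.15. Klf1, the erythroid Krüppel factor, read 7.06, 7.15 and 6.84, and Gata1 read 5.55, 5.86 and 5.89. The late red cell genes Alas2 (4.05, 4.52 and 4.12) and Rhag (2.40, 2.71 and 2.55) were near or below the control level, as was the globin gene Hba-a1 (3.10, 3.18 and 3.22). In all, 15 of 20 erythroid genes (75%) and 16 of 20 megakaryocyte genes (80%) were above on all 3 arrays, against 68.6% of all genes. Nfe2, a factor of platelet formation, read 9.998, 10.42 and 10.18, Itga2b, the integrin CD41, read 8.24, 8.14 and 7.68, and Vwf, a marker of platelet-biased stem cells, read 6.31, 6.49 and 5.29. Pf4, platelet factor 4, read 7.59, 6.85 and 8.45, whereas Tubb1, the platelet tubulin, and Gp6 were below the control level. Of 15 mast cell, basophil and eosinophil genes 5 were above on all 3 arrays (33.3%, against 68.6% of all genes). With a level 1 log2 unit higher 1 was above. Cpa3, at 5.09, 5.59 and 7.27, and Mcpt8, at 5.005, 5.11 and 6.70, were both highest on replicate 3.

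**Figure D4:**
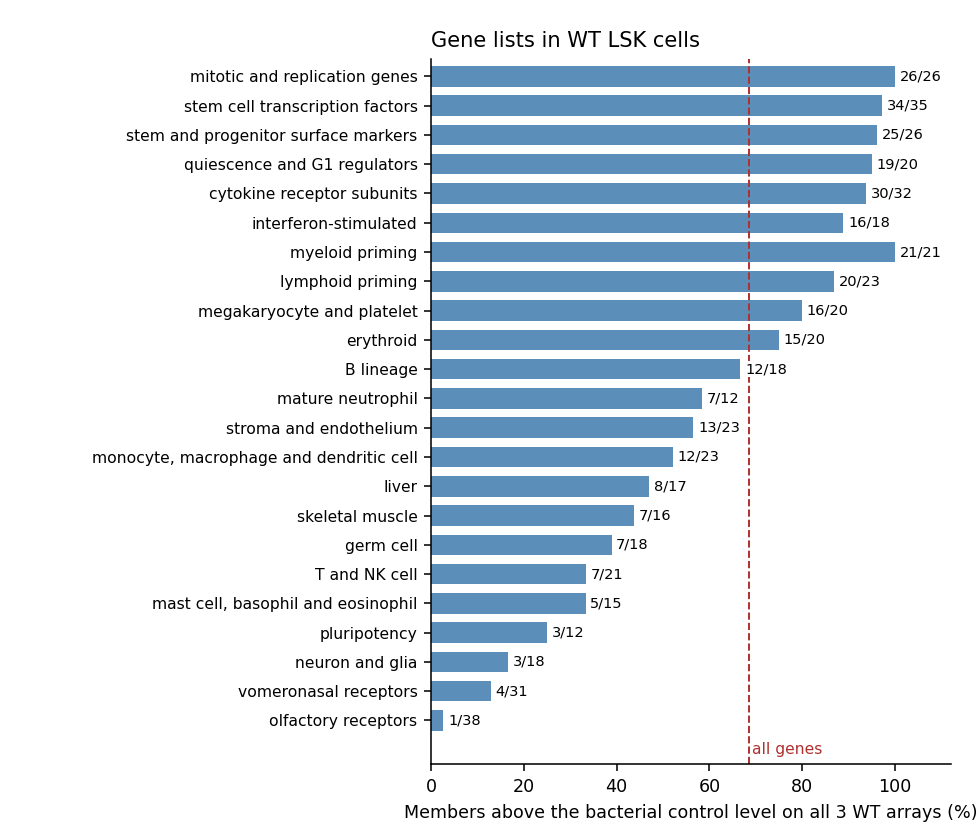
Share (percent, horizontal axis) of the measured members of 23 gene lists that were above the Bacillus control level on all 3 WT arrays, with the counts beside the bars and the share over all genes, 68.6%, as a dashed line. Mitotic, stem cell and myeloid priming lists lie to the right of the line, and lists of other tissues and of sensory receptors to the left.

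All 26 mitotic and replication genes were above the control level on all 3 arrays (100%, against 68.6% of all genes), and 14 were in the top 10%. Pcna, the sliding clamp of replication, read 11.79, 11.86 and 11.77, Mcm6 had a mean of 11.55, and Mki67, a marker of cycling cells, read 10.73, 10.69 and 11.23. Birc5, survivin, read 10.90, 8.64 and 8.96, with replicate 1 apart. A list of 20 quiescence and G1 regulators, 19 of them above (95%, against 68.6% of all genes), mixes drivers and inhibitors of the cycle. The drivers Cdk4, Cdk6, Ccnd2, Ccnd3 and Ccnd1 stood at percentiles 96.9, 96.4, 95.8, 85.2 and 78.4. The inhibitors of cyclin-dependent kinases ranged widely, with Cdkn2c at percentile 85.6, Cdkn1b, which encodes p27, at 83.1, Cdkn2d at 65.7, Cdkn1a at 52.6, Cdkn1c, which encodes p57, at 37.5 and Cdkn2a at 33.2. Cdkn2b, at percentile 10.4, was below the control level. Of the 20 genes of the immediate early and heat shock list 16 were above on all 3 arrays (80%, against 68.6% of all genes). Jun, Fos and Egr1, which are induced within minutes of stimulation, had means of 11.47, 11.23 and 9.76, while Junb had one of 5.74, Egr2 was above the control level on replicate 1 alone and Atf3 on none. Fos read 11.52, 11.47 and 10.70, Fosb 10.04, 10.06 and 9.39, and Egr1 10.46, 9.79 and 9.02, so replicate 3 was the lowest for each. The list had no common order, since Jun, Zfp36 and Dusp1 were lowest on replicate 2, and the heat shock genes Hspa1a (3.40, 3.97 and 4.85) and Dnajb1 (11.30, 11.15 and 11.70) were highest on replicate 3.

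All 10 genes measured of a list around DNA methylation were above the control level on all 3 arrays (100%, against 68.6% of all genes). With a level 1 log2 unit higher 9 were above. The list holds the methyltransferases Dnmt1, Dnmt3a and Dnmt3b with their cofactors Dnmt3l and Uhrf1, the dioxygenases Tet1, Tet2 and Tet3, and the isocitrate dehydrogenases Idh1 and Idh2. The maintenance methyltransferase Dnmt1 read 10.48, 10.81 and 10.52 and its recruiter Uhrf1 10.01, 10.19 and 10.33. Dnmt3a read 10.23, 9.31 and 9.40. Tet1, the gene deleted in the other group of mice, read 6.89, 6.80 and 6.75 in these wild-type cells, Tet2 7.28, 7.07 and 7.44, and Tet3 7.84, 7.24 and 9.11. Of 18 interferon-stimulated genes 16 were above on all 3 arrays (88.9%, against 68.6% of all genes). Oas1a led them with a mean of 9.24, while the antiviral GTPases Mx1 and Mx2 were below.

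Genes of unrelated tissues and of the sense of smell lay low in the ranking. Of 38 olfactory receptor genes 1 was above the control level on all 3 arrays (2.63%, against 68.6% of all genes), Olfr159 at 4.79, 5.08 and 5.07. Another 35 were above on none, where the share of all genes was 25.7%. Vomeronasal receptors had 4 of 31 above on all 3 (12.9%). Neuron and glia genes had 3 of 18 (16.7%), pluripotency genes 3 of 12 (25%) and germ cell genes 7 of 18 (38.9%). Skeletal muscle genes had 7 of 16 (43.8%) and liver genes 8 of 17 (47.1%). Nanog (2.83, 3.03 and 3.02), Sox2 (2.13, 2.15 and 2.00) and the neurofilament gene Nefm (1.97, 2.17 and 2.28) lay far below. Tissue genes could nevertheless be bright: the kinase gene Camk2a read 8.14, 8.18 and 8.18, the myelin gene Mbp 7.98, 7.90 and 7.78, and the sperm protamine gene Prm1 8.07, 8.17 and 8.14. Albumin, Alb, read 5.20, 5.41 and 5.46, above the control level. Of 23 genes of stroma and endothelium 13 were above on all 3 arrays (56.5%, against 68.6% of all genes). Cdh5, Pdgfra, Lum and the adipocyte gene Adipoq were above on none, and Pdgfrb was the brightest at 7.03, 7.51 and 9.005. Many of the tissue genes were only just above the control level: with a level 1 log2 unit higher the counts were 0 for olfactory and for vomeronasal receptors, 1 for pluripotency, 3 for germ cells, 2 for skeletal muscle, 3 for liver and 3 for stroma and endothelium. With an average over all probe sets of a gene, they were 6 for stroma and endothelium and 1 for neuron and glia.

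The position of a gene against the control level also moved with its number of probe sets. Of genes with 1 probe set 54.7% were above on all 3 arrays, against 77.2% with 2, 86.5% with 3 and 91.6% with 4 or more. Among 7457 genes above the control level that had several probe sets, 2181 (29.2%) also had a probe set above it on no array, and the median gap between the brightest and the dimmest was 2.06 log2 units.

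The spread between the 3 arrays was small for most genes. Among the 12485 genes above the control level the median SD was 0.177 log2 units, and 92.8% had an SD under 0.5. In 792 of them (6.34%) the highest and the lowest array were more than 1 log2 unit apart. By quartile of the mean, this share was 4.93% in the lowest, 8.17% in the second, 6.60% in the third and 5.67% in the highest. The array farthest from the middle one was replicate 1 for 277 of the 792 genes, replicate 2 for 228 and replicate 3 for 287, so no array held most of them. Without replicate 1, 2 or 3, the number of such genes was 392, 469 and 404, with fewer arrays to span.

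Of the 15 named genes with the largest SD, Xist, Kdm5d and Eif2s3y are sex-linked. Eif2s3y read 2.82, 2.74 and 8.01, and the Y-linked Uty, in the same order, 2.44, 2.73 and 5.70. Replicate 3 was thus opposite to replicates 1 and 2 for all 4 genes of a short sex-linked list. Mid1, an X-linked gene that is also among the 15, read 9.03, 9.20 and 5.44, and other X-linked genes were not examined as a group. Another 3 of the 15, Igha, Igk-V21 and a kappa variable gene of family 9, are immunoglobulin genes. Igha, the heavy chain of IgA, read 11.77, 12.86 and 8.12, and all 3 of its probe sets had that order. The family 9 gene read 8.40, 6.77 and 2.42 and Igk-V21 read 8.98, 7.16 and 3.48, with replicate 3 below the control level.

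Igk read 11.54, 12.56 and 10.27 and Jchain, the joining chain of secreted IgA and IgM, read 9.29, 10.42 and 7.64, with the order of Igha. Sdc1, the plasma cell antigen CD138, read 6.82, 7.31 and 5.60. These were among 12 plasma cell genes chosen after the values of Igha were seen, of which 9 were above the control level on all 3 arrays (75%, against 68.6% of all genes), 1 on some and 2 on none. The medians of that list were 5.75, 6.94 and 5.42. The 2 members above on none were Prdm1 (3.98, 3.80 and 4.15) and Tnfrsf17 (4.13, 4.18 and 4.22). The part of plasma cells in the immunoglobulin values was not tested. Ighm had another order, at 8.09, 9.74 and 10.35.

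Of the remaining genes of widest spread, Ankrd52 read 7.88, 7.20 and 12.30 and Tent5a read 5.59, 10.54 and 7.40. Pla2g6, a phospholipase, read 10.75, 6.39 and 6.43 on 1 of its 3 probe sets. Nxpe4 and Ift43 were highest on replicate 2, St6galnac5 on replicate 1, and BC023105 and Esco2 on replicate 3. Esco2, a cohesin acetyltransferase of S phase, read 5.41, 6.00 and 9.44.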

How the data were processed

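RNA of sorted LSK cells was hybridised to Affymetrix arrays, per the labels' protocols. The values used are the authors' deposited log2 intensities for 45101 probe sets, which lie between 1.50 and 14.6 on the 3 WT arrays. The steps from scanned image to these values (background, normalization, summarization) are not given in the sources used here. A whole-transcript labelling kit is named in the labels although the array is a 3′ design by its probe set names, and this was not settled.

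By the platform annotation 34958 probe sets have 1 gene symbol, 932 have several and 9211 none, and only the first were used. Of these, 34754 (99.4%) matched RefSeq by gene identifier. They give 18195 genes, of which 9011 have several probe sets and are represented by the brightest. The control level is the brightest of 27 probe sets of the Bacillus genes dap, lys, phe, thr and trp on each array. The 3 Tet1 KO arrays were not used, and no test was made, since the WT arrays form 1 group. Genes were named by fixed lists and families, by the 20 highest means (ribosomal protein and predicted genes counted only) and by the 15 largest SDs.

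The members and lists were chosen with earlier results of these data known. After values were seen, the plasma cell list was added, ribosomal paralogs and 1 interleukin antagonist were left out of families, and the histone family was dropped. The promoter comparison and the printed promoters were also settled then. Promoters were in the RefSeq table for 80.6% of 16466 protein-coding genes, 76.5% to 84.1% by decile. The alternatives were an average over all probe sets of each gene, quantile normalization, a median shift, other control levels and leaving out each array. Python 3.11.15, numpy 2.4.6, pandas 2.3.3 and matplotlib 3.10.9 were used, and the calculations were tested on simulated data.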

Additional observations from a re-analysis of the deposited data

How the results depend on the processing

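The number of genes above the control level on all 3 arrays was 12485 as reported. It was 12486 after quantile normalization, 12485 after a median shift, 11586 with an average over all probe sets of each gene, 11676 with the 95th percentile of olfactory and vomeronasal receptor probe sets as the level, 9959 with a level 1 log2 unit higher, and 12595 to 12755 with 1 array left out. The median SD of 0.177 was 0.157 with that average and 0.132 to 0.150 with 1 array left out. The number of genes spanning over 1 log2 unit went from 792 to 401 with that average, and to between 392 and 469 with 1 array left out, where fewer arrays are spanned by construction. With that average the rank percentile of Kit went from 94.8 to 95.8, that of Cd34 from 97.6 to 99.1 and that of Flt3 from 96.1 to 98.4. Cd34 and Flt3 have 1 probe set each, so other genes moved. A level 1 log2 unit higher took the T and NK cell count from 7 to 4. Of 60 values computed under that level 18 moved, down to 0 for Pax factors (5 as reported), Hoxd, olfactory and vomeronasal receptors and the sex-linked list. The depth of an array cannot be read from these values, signal over background is known from the control probe sets alone, and 3 arrays limit every SD.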

Other observations

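Protein turnover and energy genes formed another bright layer of the ranking. All 75 mitochondrial ribosomal protein genes were above the control level on all 3 arrays (100%, against 68.6% of all genes). Their median percentile was 85.2, and Mrpl52 led them at 12.29, 12.07 and 12.27. Of 39 proteasome subunit genes 38 were above (97.4%), with a median percentile of 92.0. The catalytic subunits of the immunoproteasome, Psmb8 at 11.30, 10.96 and 10.76 and Psmb9 at 10.55, 10.64 and 10.61, lay among the constitutive subunits Psma6, with a mean of 11.08, and Psmb6, with a mean of 10.28. Of 34 complex I subunit genes 33 were above (97.1%), with a median percentile of 95.5, led by Ndufb7 at 12.54, 12.32 and 12.22. Ndufs7 read 11.05, 12.15 and 10.89 and Psmb7 read 9.98, 11.26 and 9.97, so both stood higher on replicate 2.

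Of 81 surface molecules named by a CD number 53 were above the control level on all 3 arrays (65.4%, against 68.6% of all genes) and 27 on none (25.7% of all genes). Cd81, a tetraspanin, read 11.02, 11.03 and 11.10, and Cd40, a receptor of antigen-presenting cells, read 7.77, 7.54 and 7.62. Cd36, Cd80, Cd83 and Cd2 were below. In the Ly6 family, to which the Sca-1 gene belongs, Ly6e read 11.95, 12.05 and 12.13 and Ly6d, a marker of B-biased lymphoid progenitors, read 5.54, 5.66 and 5.81, while 5 of the 8 members measured were below the control level. Of 44 keratin genes 23 were above on all 3 arrays (52.3%, against 68.6% of all genes), but 7 with a level 1 log2 unit higher. Krt18 read 9.29, 9.34 and 9.34, and its usual partner Krt8 read 4.72, 4.72 and 4.34.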
